A study of Mus musculus with 29 samples.

Results

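The comparison concerns long-term haematopoietic stem cells (LT-HSC) of Dnmt3a-mutant and control mice. Its members are the 3 libraries titled as Dnmt3a mutant LT-HSC and the 4 titled as control LT-HSC, 7 of the 29 libraries of the series. The other 22 libraries are ST-HSC (short-term HSC) and the multipotent progenitors MPP3 and MPP4. All 7 libraries are polyA RNA of bone marrow cells from C57BL/6 mice, described as young and taken 6 weeks after pIpC. This double-stranded RNA analogue is commonly injected to induce Cre from the Mx1 promoter. The Dnmt3a allele, the recombinase and the number of animals behind a library are not stated in the sources used here, and controls received pIpC as well as mutants. By its title, the series belongs to work on transformation of mutant stem cells in an aged environment.

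LT-HSC are rare marrow cells that divide seldom, keep themselves over the life of an animal and give rise to all blood lineages. Dnmt3a encodes an enzyme that adds methyl groups to cytosines at sites not methylated before, and its loss in stem cells is known to favour self-renewal over differentiation. Mutations of the human gene are common in clonal haematopoiesis, in which descendants of 1 stem cell take up a growing share of the blood.

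Library totals were 8151317, 8154515, 8234571 and 6438821 counts in control replicates 1, 2, 3 and 4, and 9416995, 8040593 and 8608955 in mutant replicates 1, 2 and 3. All values below are CPM, counts put on a like library size by the trimmed mean of M values, and they follow the same order of replicates. With 3 counts taken as the floor, a count of 0 allowed up to 0.309 to 0.436 CPM, a limit for counting error alone, since PCR copies do not count separate molecules. Mitochondrial ribosomal RNA and an rRNA-like gene held 28.0% to 35.3% of the counts. Replicates within a group differed by more than sampling noise in all 9 pairs, by chi-square values of 23.9 to 72.4 for each degree of freedom. Nothing in the labels ties replicates to separate animals, so the p-values describe only how far these samples spread, and that spread may be technical. The column names carry 1 of 2 prefixes. Control replicates 1 and 2 share a prefix with mutant replicate 3, and control replicates 3 and 4 share the other with mutant replicates 1 and 2.

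Control replicates 1, 2 and 3 carried RNA of mature blood cells, and control replicate 4 held most of these genes at or near the levels of the mutants. S100a8, which encodes a calcium-binding protein abundant in neutrophils (chromosome 3, 90668978 to 90670035), was at 2298, 599.9, 363 and 3.77 CPM in the controls. In the mutants it was at 17.6, 68.5 and 5.94. Replicate 4 therefore lay below every mutant library, and the other 3 controls lay above all of them. The 25 neutrophil markers summed to 14000, 5193, 2243 and 176 CPM in controls and to 335, 635 and 186 in mutants. They made up 1.18% of the counts of control replicate 1 and 0.0188% of those of replicate 4. The 21 erythroid genes found in the table summed to 31860, 6971, 10180 and 1143 CPM in controls and 1132, 1443 and 1039 in mutants. Erythroid genes alone held 2.69% of the counts of control replicate 1, against 0.122% in replicate 4.

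**Figure D1:**
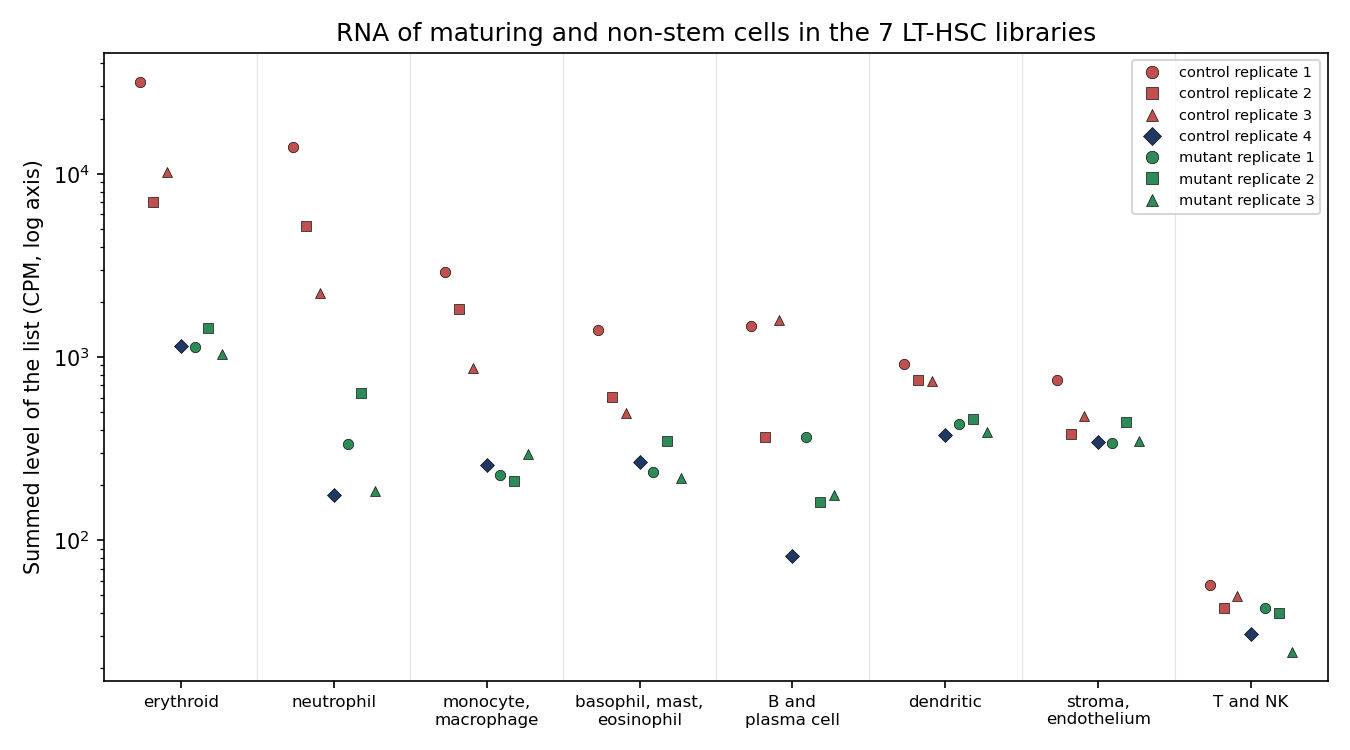
Summed CPM of 8 lists of genes of maturing or non-stem cells (log axis) in each of the 7 LT-HSC libraries. Control replicates 1 to 3 (red) stand above control replicate 4 (blue) and the mutants (green) for erythroid, neutrophil, monocyte and macrophage, basophil and dendritic genes, with neutrophil sums of 2243 to 14000 CPM against 176 to 635.

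Other cell types followed the same order. Monocyte and macrophage markers summed to 2899, 1832, 873 and 257 CPM in controls and 228, 210.4 and 295 in mutants. Markers of basophils, mast cells and eosinophils summed to 1408, 608, 493 and 268 CPM against 235, 347 and 219. For these lists, replicate 4 lay within or next to the mutant range and the other controls far above it. Mature B and plasma cell markers were at 1474, 366, 1592 and 81.8 CPM against 364, 161 and 177, so that control replicate 3, not 1, was highest and mutant replicate 1 was close to control replicate 2. Dendritic cell markers, at 374 to 915 CPM in controls and 390.1 to 462 in mutants, stromal and endothelial markers (344 to 748 against 338 to 440.1) and T and NK cell markers (30.9 to 56.9 against 24.6 to 42.7) varied less. Of the defining genes, Cd3e of T cells was at 2.47, 2.93, 0.977 and 0 CPM, with 0 counts in every mutant library. Cdh5 of endothelium had counts in control replicate 1 alone, at 0.873 CPM, and C1qa of macrophages was at most 1.75 CPM in any library. Mcpt8 of basophils was at 16.3, 10.1, 0.855 and 0 CPM in controls and had 0 counts in mutants.

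The high neutrophil levels were not shared by other libraries with the same number in the description. The 7 ST-HSC, MPP3 and MPP4 libraries that carry the numbers of control LT-HSC replicates 1, 2 and 3 had neutrophil sums of 244 to 497 CPM, scaled over 29 libraries. Mature B and plasma cell markers differed in this respect. On the same scale they summed to 19060 and 19390 CPM in the control MPP3 libraries with the numbers of LT-HSC replicates 1 and 3, against 4373 in the other control MPP3 library. In control ST-HSC they summed to 3464 CPM in the library with the number of LT-HSC replicate 1, against 139.8 and 478.9 in the others, and that library was also the highest of its group for monocyte and macrophage markers (642 CPM) and dendritic cell markers (1432 CPM). In these bulk samples, fewer cells of a type and less RNA per cell cannot be told apart. The part of the mature-cell RNA in the differences below was not tested as a cause. Most results are therefore given beside the level of control replicate 4, or with mutants set against that library alone.

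Across 13922 genes tested, none passed an adjusted p of 0.05 in edgeR's quasi-likelihood test, which is 0% of them, and the smallest adjusted p was 0.126. An unadjusted p under 0.05 was reached by 1185 genes (8.51%). Of these, 839 (6.03% of all tested) were lower in mutants and 346 (2.49%) were higher. Of the 839 lower genes, control replicate 4 lay above all 3 mutants for 366, within their range for 376 and below them for 97. Of the 346 higher genes, it lay below all mutants for 299, within their range for 47 and above them for 0. Both sets were chosen by a p that used control replicate 4, so its position in them is partly fixed by selection. Over all 13922 genes tested, it lay above the mutants for 3239, within their range for 7438 and below them for 3245. Mutant and control libraries did not overlap for 506 lower genes (3.63%) and 499 higher genes (3.58%). DESeq2 called 292 genes on the same counts, 279 lower and 13 higher. The edgeR count was 417 without control replicate 4 (408 lower and 9 higher), 1 without control replicate 3, and 0 without any other single library. The gene called without control replicate 3 was Evi2, which is described last. With the summed neutrophil markers of each library as a covariate, 6 genes passed in edgeR, all lower in mutants. They included Igsf6 (log2 -3.87, adjusted p = 0.00314), Adam19, Cxcl2 and Rhag (adjusted p = 0.0116 to 0.0470).

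Among the genes without overlap, the 12 with the smallest p on the lower side were headed by Igsf6, an immunoglobulin-superfamily receptor gene of myeloid cells (chromosome 7, 121064067 to 121074572). It was at 146, 59.2, 26.9 and 13.8 CPM in controls and 0.721, 1.88 and 0.815 in mutants. Even the lowest control was several times the highest mutant. All 12 were chosen for having no overlap, so control replicate 4 lies above every mutant in them by selection. Their differences against replicate 4 alone share that selection and are not separate support. The log2 difference was -5.75 ± 0.86 (SE; edgeR adjusted p = 0.126), and -3.57 ± 0.89 against control replicate 4 alone. Adam19, a membrane metalloproteinase gene (chromosome 11, 46055992 to 46147343), was at 73.9, 49.8, 19.8 and 3.34 CPM against 0.309, 0 and 0. Control replicate 4 was again the lowest control. Over all control libraries Adam19 had 1100 counts, and over all mutants 3. The ratio was 326 per unit of library size, with a 95% counting interval of 111 to 1585. That interval covers counting error alone and leaves out the spread between libraries. The log2 difference of Adam19 was -8.19 ± 1.27, and -4.77 ± 2.01 against control replicate 4 alone.

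Bcl6 encodes a zinc-finger transcriptional repressor best known from germinal-centre B cells (chromosome 16, 23965052 to 23988852). Its levels were 64.1, 35.3, 23.4 and 13.1 CPM in controls and 3.81, 4.57 and 3.73 in mutants. The mutants lay close together and all controls above them, with replicate 4 nearest. The log2 difference was -3.07 ± 0.52 (edgeR adjusted p = 0.126), and -1.67 ± 0.69 against control replicate 4 alone. Of 21 genes of BCL6 and related repressors, which include its relatives and partners, 13 were higher and 8 lower in mutants. Zbtb16, the gene of the related repressor PLZF, was at 7.71, 11.9, 8.42 and 11.6 CPM against 22.1, 12.2 and 18.7. Mutant replicate 2 was close to the highest control there, and the other mutants stood further above (log2 0.84 ± 0.35, adjusted p = 0.512).

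Inflammatory mediators formed part of the same group. Tnf, the gene of tumour necrosis factor (chromosome 17, 35199381 to 35202007), was at 30.1, 13.8, 10.7 and 6.09 CPM in controls and 0.721, 0.469 and 0 in mutants. Its log2 difference was -5.18 ± 0.88 (edgeR adjusted p = 0.126), and -3.87 ± 1.52 against control replicate 4 alone. Cxcl2, a chemokine gene whose product draws neutrophils (chromosome 5, 90903871 to 90905938), was at 69.8, 64.8, 18.2 and 3.63 CPM against 0.721, 0.704 and 0.116. For both genes the controls ran from replicate 1 down to replicate 4, which lay above every mutant by selection. The log2 difference of Cxcl2 was -6.20 ± 1.05 (adjusted p = 0.126), and -2.77 ± 1.63 against replicate 4 alone.

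A pair of erythroid genes belonged to the 12 as well. Rhag encodes the Rh-associated glycoprotein of the red cell membrane (chromosome 17, 40811126 to 40840754) and was at 99.5, 31.9, 47.0 and 6.38 CPM against 1.75, 1.52 and 1.16. Alas2, the gene of the erythroid enzyme that starts haem synthesis (chromosome X, 150547375 to 150570638), was at 286, 86.2, 79.2 and 19.9 CPM against 6.18, 2.46 and 5.94. Replicate 4 held several times the mutant level of each, although the summed erythroid genes were alike in replicate 4 and the mutants. The log2 differences were -4.95 ± 0.81 for Rhag (edgeR adjusted p = 0.126) and -4.59 ± 0.80 for Alas2 (0.148). Against control replicate 4 alone they were -2.08 ± 1.07 and -2.01 ± 0.65.

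Other members of the 12 had lower levels. Reln, the gene of the secreted glycoprotein reelin (chromosome 5, 21884454 to 22344702), was at 19.3, 6.11, 7.08 and 5.22 CPM against 0.515, 0.586 and 0.466. In Reln, control replicates 2, 3 and 4 were alike and all roughly an order of magnitude above the mutants, while replicate 1 stood highest, as it did for the summed erythroid genes. Its log2 difference was -4.14 ± 0.69 (edgeR adjusted p = 0.126), and -3.27 ± 1.37 against control replicate 4 alone. Jaml, an adhesion molecule gene of leukocytes, had 236 counts in controls and 1 in mutants. F630028O10Rik, annotated as antisense on chromosome X, was at 9.86 to 41.3 CPM against 0.931 to 2.93, and a partner on the other strand cannot be told apart because no source used here states whether counting used strand. The unmatched identifier ENSMUSG00000071286 was at 3.63 to 17.2 CPM against 0 to 0.309.

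**Figure D2:**
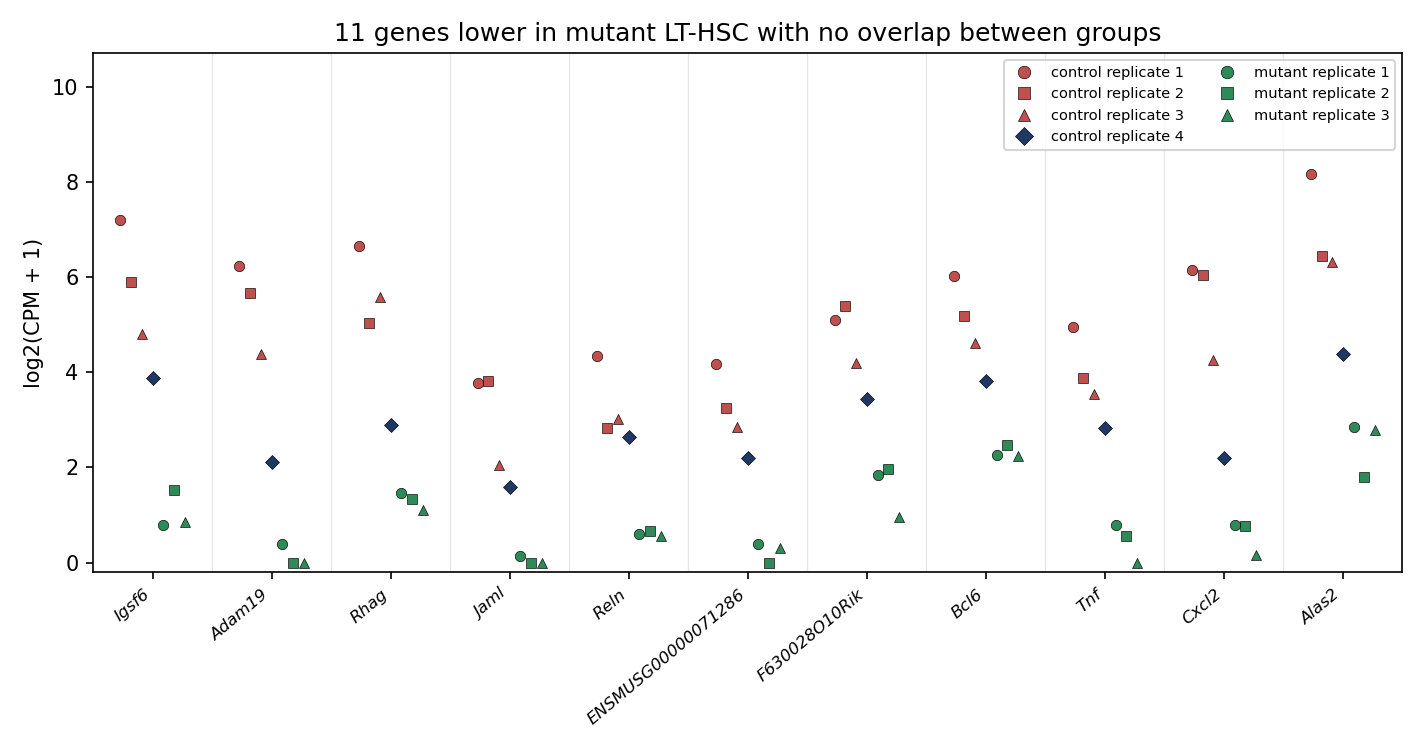
Level (log2 of CPM + 1) of 11 of the 12 genes with the smallest p among those lower in every mutant library, in each of the 7 libraries. In all 11, control replicate 4 (blue) sits between the other controls (red) and the mutants (green) or among the lowest controls, as for Bcl6 at 13.1 CPM against at most 4.57 in mutants.

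The promoters of 4 of these genes are shown because the genes were low together and fall into an erythroid pair (Rhag, Alas2) and a pair outside that lineage (Cxcl2, Bcl6). They are RefSeq windows on GRCm38.p6 of up to 250 bases before the start, on the gene's own strand, without bases that the GENCODE annotation places inside the gene. Capitals mark matches to the letters AGATAA or TGATAA (bound by GATA factors) and GGGNNNTTCC (bound by NF-kB), searched on both strands. Rhag lies at chr17:40810899-40811125 (+), Alas2 at chrX:150547167-150547374 (+), Cxcl2 at chr5:90903649-90903870 (+) and Bcl6 at chr16:23988853-23989102 (-).
Rhag: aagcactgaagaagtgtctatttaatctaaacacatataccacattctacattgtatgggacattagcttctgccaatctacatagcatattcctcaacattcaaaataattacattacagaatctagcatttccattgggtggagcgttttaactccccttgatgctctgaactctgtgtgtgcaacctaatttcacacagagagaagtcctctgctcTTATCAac
Alas2: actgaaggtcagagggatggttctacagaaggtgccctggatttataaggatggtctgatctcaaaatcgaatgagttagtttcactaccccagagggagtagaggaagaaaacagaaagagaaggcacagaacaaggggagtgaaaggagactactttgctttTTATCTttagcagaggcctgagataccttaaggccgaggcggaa
Cxcl2: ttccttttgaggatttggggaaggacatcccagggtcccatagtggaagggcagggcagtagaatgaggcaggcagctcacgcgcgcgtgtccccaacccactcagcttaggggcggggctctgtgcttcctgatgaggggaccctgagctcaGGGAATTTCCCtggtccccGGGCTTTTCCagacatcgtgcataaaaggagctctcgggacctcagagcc
Bcl6: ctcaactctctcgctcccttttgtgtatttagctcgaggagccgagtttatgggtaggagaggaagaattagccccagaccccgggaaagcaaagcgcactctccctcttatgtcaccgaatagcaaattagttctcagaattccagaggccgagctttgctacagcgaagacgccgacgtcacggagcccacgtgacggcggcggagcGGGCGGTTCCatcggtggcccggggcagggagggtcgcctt
Rhag and Alas2 each held 1 GATA match, as did 16.6% of the 32851 mouse windows of this kind. Cxcl2 held 3 matches to the NF-kB letters, of which the palindromic pair on both strands overlaps, and Bcl6 held 1. Such a match was present in 4.65% of all windows. The windows of Tnf and Igsf6, searched as well and not printed, held neither motif, so the 4 printed windows are those with a match. CG dinucleotides, the sequence context that DNMT3A methylates, were counted over the full 250 bases, including any bases inside the gene that are not printed. They numbered 21 for Bcl6, 10 for Tnf, 9 for Cxcl2, 4 for Alas2, 2 for Igsf6 and 1 for Rhag. The median over all windows was 6. A match describes letters and not binding, and methylation was not measured in these files.

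On the higher side, the 12 genes without overlap and with the smallest p included Cbx6, which encodes a chromobox protein of the Polycomb repressive complex (chromosome 15, 79823896 to 79834688). It was at 32.1, 33.6, 25.0 and 31.8 CPM in controls and 55.3, 55.6 and 66.7 in mutants. The controls lay within a narrow band below all mutants. The log2 difference was 0.95 ± 0.21 (edgeR adjusted p = 0.197), and 0.91 ± 0.40 against control replicate 4 alone. Sord, the gene of sorbitol dehydrogenase (chromosome 2, 122234749 to 122265340), was at 37.5, 58.3, 47.4 and 46.7 CPM against 91.8, 80.7 and 84.2. Each mutant exceeded each control, as the selection required (log2 0.85 ± 0.21, edgeR adjusted p = 0.197, and 0.89 ± 0.36 against replicate 4 alone).

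Mgat4b, the gene of an enzyme that branches N-glycans (chromosome 11, 50210890 to 50235103), was at 5.67, 4.52, 4.76 and 4.79 CPM against 16.8, 16.7 and 10.7. Control replicate 4 was in the middle of the controls. The log2 difference was 1.57 ± 0.37 (edgeR adjusted p = 0.197), and 1.63 ± 0.65 against replicate 4 alone. Within the prefixes, on log2 of CPM + 1, Cbx6 differed by 1.00 and 0.95. The higher genes were also chosen for having no overlap. That choice fixes the sign of differences within a prefix and against replicate 4 alone, so neither is separate support. Echdc2, related to mitochondrial enoyl-CoA hydratases (chromosome 4, 108165437 to 108179308), had 0 counts in all 4 controls and was at 1.55, 1.99 and 2.56 CPM in mutants, from 54 counts. With the floor of 3 counts per control library it was at least 5.07-fold higher in mutants (adjusted p = 0.197).

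Metabolic and RNA-binding genes filled most of the other places. Pygm, which encodes a glycogen phosphorylase known from muscle, was at 3.49, 5.13, 2.81 and 5.95 CPM against 28.9, 8.33 and 14.6. Ak4, the gene of a mitochondrial adenylate kinase, was at 5.82, 9.29, 12.8 and 8.85 CPM against 21.7, 17.1 and 31.9. Igf2bp2, an RNA-binding protein gene, was at 1.75, 2.2, 1.95 and 2.90 CPM against 14.4, 5.75 and 6.29. Mutant replicate 1 was the highest mutant for Pygm and Igf2bp2, and mutant replicate 3 for Ak4. The last 4 were Tsnax, which encodes a partner of the RNA-binding protein translin, the zinc-finger genes Zfp467 and Zfp418, and Abhd14b, a hydrolase-family gene. Their log2 differences ran from 0.96 to 2.05, with edgeR adjusted p of 0.204 to 0.218, and against control replicate 4 alone from 0.58 to 1.85. Control replicate 4 was the highest control for Pygm, Igf2bp2, Tsnax, Zfp418 and Abhd14b.

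**Figure D3:**
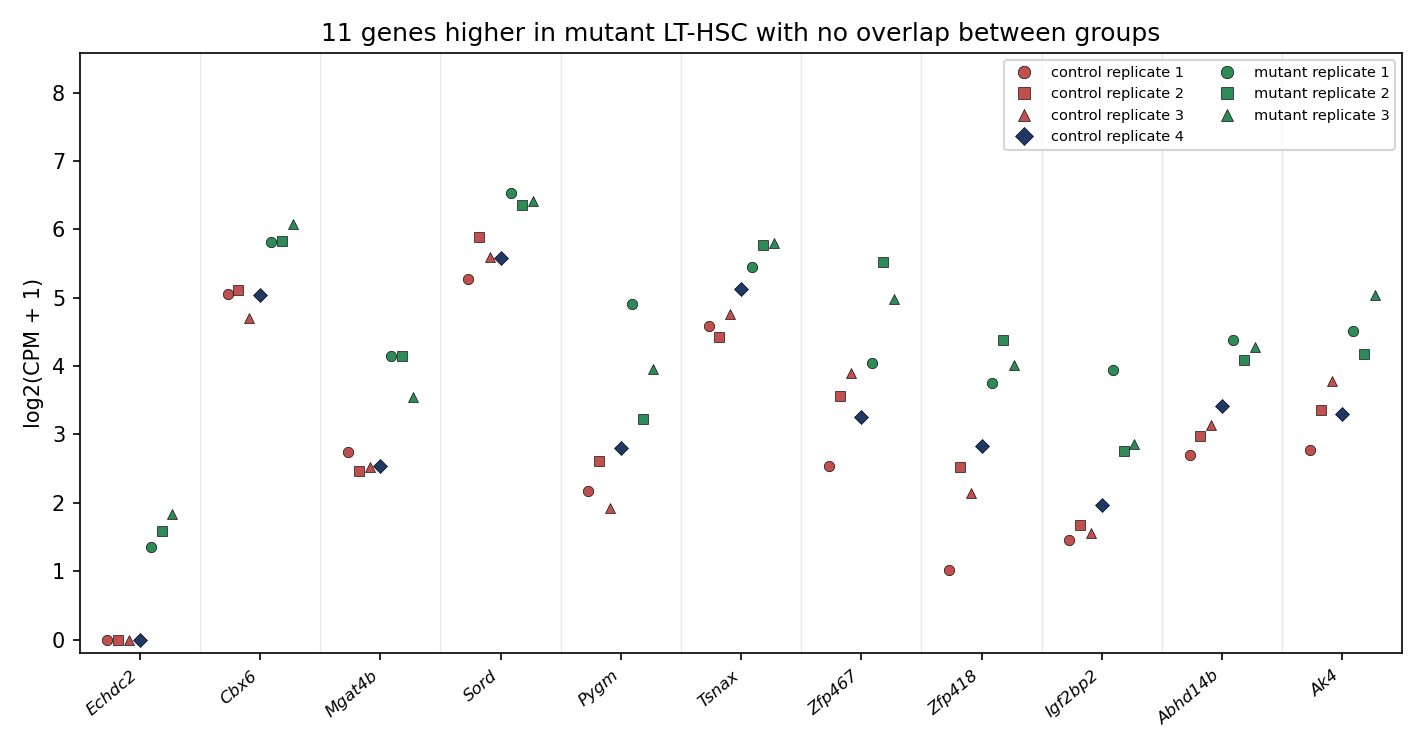
Level (log2 of CPM + 1) of 11 of the 12 genes with the smallest p among those higher in every mutant library, in each of the 7 libraries. Control replicate 4 (blue) lies among or next to the other controls (red) and every mutant (green) lies above them, as for Cbx6 at 25.0 to 33.6 against 55.3 to 66.7 CPM.

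Dnmt3a itself was at 83.3, 136, 108 and 171 CPM in controls (mean 125 ± 37.8, SD, n = 4) and 124, 129 and 139 in mutants (131 ± 7.77, n = 3; chromosome 12, 3806007 to 3914443). The mutants lay inside the control range, with control replicate 1 lowest and replicate 4 highest. The log2 difference was 0.07 ± 0.24 (edgeR adjusted p = 0.971), and -0.38 ± 0.31 against control replicate 4 alone. Since a point mutation need not alter the RNA level, the gene does not check the genotype labels.

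The labelled cell type was checked on stem-cell and sorting genes. Kit, the stem cell factor receptor by which HSC are sorted (chromosome 5, 75574916 to 75656722), was at 261, 496, 446 and 567 CPM in controls and 736, 679.6 and 635 in mutants. Slamf1, the gene of the LT-HSC marker CD150, was at 14.4, 24.3, 30.3 and 30.6 CPM against 31.9, 35.5 and 55.1. Ly6a, which encodes Sca-1, was at 20.4, 34.4, 31.5 and 33.8 CPM against 38.7, 56.8 and 38.2. All 3 were detected in every library and did not overlap between groups, yet control replicate 1 was the lowest in each, and replicate 4 was at or near the top of the controls. The log2 differences were 0.63 ± 0.25, 0.71 ± 0.32 and 0.57 ± 0.27 (edgeR adjusted p = 0.474, 0.562 and 0.600). Against control replicate 4 alone they were 0.28 ± 0.30, 0.43 ± 0.45 and 0.42 ± 0.43.

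Of markers that should be low in LT-HSC, Cd48, whose protein sorts LT-HSC from progenitors by its absence, was at 25.2, 15.2, 10.9 and 1.16 CPM in controls and 3.40, 1.52 and 0.116 in mutants. The 3 controls with mature-cell RNA were highest, and replicate 4 lay among the mutants. Flt3, the FLT3 ligand receptor of progenitors, was at 72.9, 72.4, 52.6 and 58.7 CPM against 39.8, 29.9 and 61.2, with mutant replicate 3 inside the control range. Cd34 was at 50.03, 89.7, 103 and 126 CPM against 104, 130.0 and 102, which overlap. Procr, the gene of the LT-HSC marker EPCR, was at 29.2, 10.6, 23.1 and 16.7 CPM against 10.8, 53.9 and 54.4, so that mutant replicate 1 sat at the bottom of the control range while the others were above it.

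Long-term HSC genes were higher in mutants for 27 of the 29 tested members, with a median log2 difference of 0.43, against 6973 of 13922 and 0.00 over all genes. None of the members passed over all genes, and 4 of the 29 were higher at an unadjusted p under 0.05, next to 2.49% of all genes. Against control replicate 4 alone the median was 0.04, next to 0.08 over all genes. Their summed level was 2019, 2743, 3192 and 3540 CPM in controls and 3426, 4000 and 3983 in mutants, with replicate 4 between mutant replicates 1 and 3 in level. Within the prefix of control replicates 1 and 2 the median difference was 0.86, with 29 of 29 higher, and within the other it was 0.11, with 19 of 29 higher.

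The members that stood furthest apart included cell-surface and transcription factor genes. Vldlr, a lipoprotein receptor gene (chromosome 19, 27216484 to 27254231), was at 10.3, 32.9, 14.4 and 32.3 CPM in controls and 66.6, 43.2 and 37.8 in mutants, with no overlap (log2 1.13 ± 0.40, edgeR adjusted p = 0.406). Mycn, a Myc-family transcription factor gene, was at 37.8, 31.8, 64.6 and 52.8 CPM against 72.5, 87.6 and 62.2. Control replicate 3 exceeded mutant replicate 3 there. Mecom, a transcription factor gene needed for stem-cell maintenance, was at 62.7, 98.9, 92.4 and 137 CPM against 148, 125 and 151, and Hlf, another such gene, at 383, 438, 547 and 692 against 643, 708 and 731. In both, control replicate 4 lay among the mutants and the log2 difference against it alone was 0.05 ± 0.32 and 0.02 ± 0.30.

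**Figure D4:**
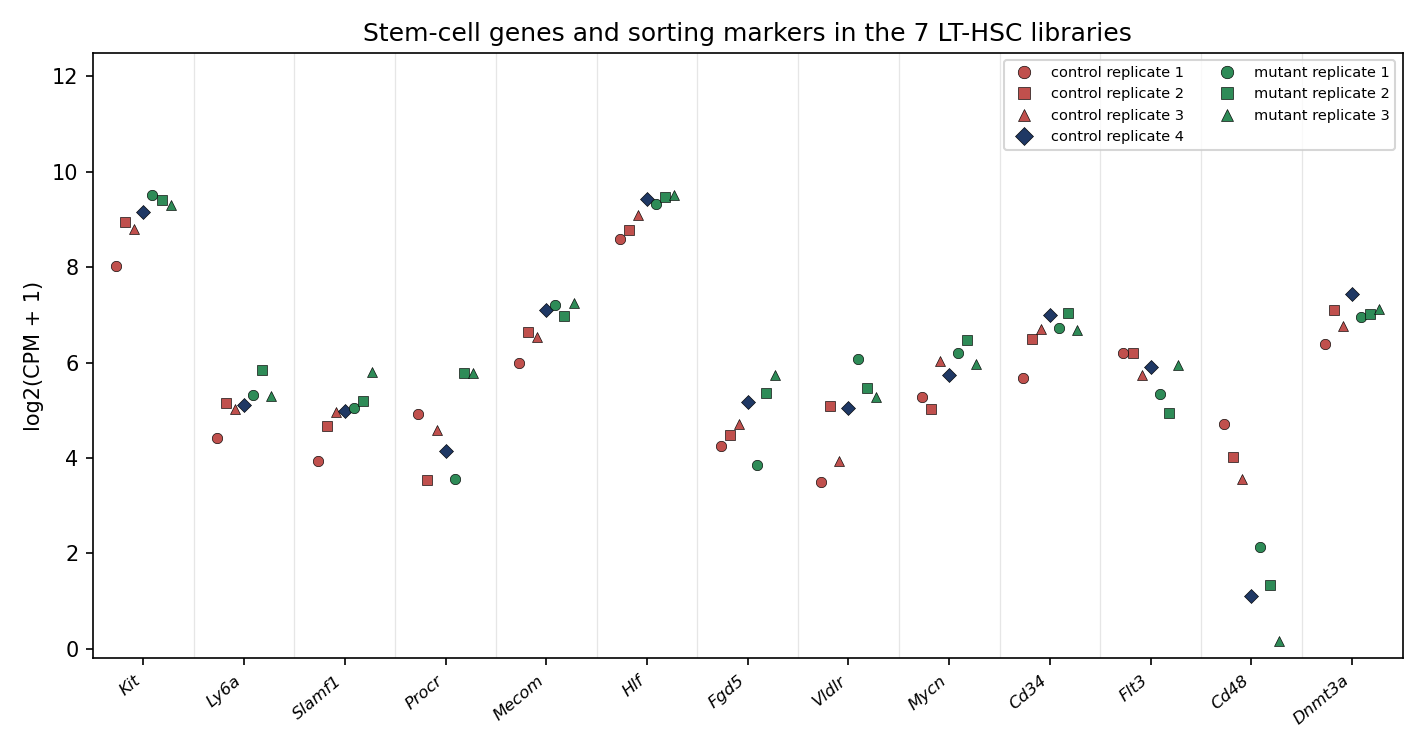
Level (log2 of CPM + 1) of stem-cell genes, sorting markers and Dnmt3a in each of the 7 LT-HSC libraries. Kit, Ly6a, Slamf1 and Vldlr do not overlap between groups, whereas control replicate 4 (blue) lies among the mutants (green) for Mecom, Hlf and Cd48, the last at 1.16 CPM against 0.116 to 3.40.

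Megakaryocyte and platelet genes, which LT-HSC are known to share in part with platelet-forming cells, were higher for 13 of 18 tested members, with a median of 0.30. Here the median against control replicate 4 alone was 0.39, next to 0.08 over all genes. In that setting 12 of 19 members were higher, as were 8282 of 14956 over all genes. The medians within the prefixes were 0.35 and 0.31. The summed level overlapped between groups, at 959, 1197, 1371 and 1259 CPM in controls and 1598, 1581 and 1321 in mutants. Mmrn1, which encodes the platelet and endothelial protein multimerin (chromosome 6, 60924976 to 60989378), was at 110.4, 138, 149.7 and 157 CPM against 189.6, 188 and 250.4. Its groups did not overlap and the controls lay close to each other. The log2 difference was 0.59 ± 0.20 (edgeR adjusted p = 0.341), and 0.43 ± 0.33 against replicate 4 alone. Cavin2, a caveola component gene, was at 12.7, 24.6, 27.0 and 20.01 CPM against 36.8, 28.6 and 46.2, again without overlap, and Pf4, the platelet factor 4 gene, at 26.9, 54.2, 70.7 and 60.2 against 61.2, 45.2 and 47.6, with overlap.

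Lineage genes of mature blood were lower in mutants, as the lists of marker RNA above imply. Erythroid genes were lower for 20 of 21 tested members (median log2 -4.03), and 17 had an unadjusted p under 0.05, as did 6.03% of all genes in this direction. Against control replicate 4 alone their median was 0.00. Rhag and Alas2, described above, were above the mutants in replicate 4 by their selection. The beta-globin gene Hbb-bs, by contrast, was at 9446, 2625, 3070.0 and 191 CPM against 211, 263 and 142, with replicate 4 inside the mutant range. Haemoglobin genes have near-identical copies, so how their reads were shared is uncertain.

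Neutrophil markers were lower for 22 of 22 tested members, with a median of -3.66, and against control replicate 4 alone the median was 2.16 with the opposite sign. Within the prefixes the medians were -5.51 and -0.18. Control replicate 4 lay below all mutants for 12 of the 22 members, and for 3245 of the 13922 genes tested. S100a9, the partner of S100a8, was at 3994, 1112, 454 and 3.92 CPM against 31.5, 135 and 15.6, and Ngp, a granule protein gene, at 3160.0, 1140.0, 402 and 30.6 against 44.6, 138 and 24.8. Cxcr2, the receptor gene for CXCL2 (chromosome 1, 74153989 to 74161246), was the member whose 4 controls all exceeded the mutants, at 283, 248, 143 and 58.4 CPM against 57.2, 44.3 and 50.5. Replicate 4 and mutant replicate 1 were nearly equal in it.

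Genes of granulocyte and monocyte priming were lower for 20 of 23 tested members, with a median of -1.37, and 0.14 against control replicate 4 alone. Elane, the neutrophil elastase gene, was at 116, 46.2, 42.2 and 0 CPM in controls and had 0 counts in every mutant. With the floor of 3 counts per mutant library, the control mean was at least 151-fold higher, but control replicate 4 had 0 counts as well. Mpo, the myeloperoxidase gene, was at 750.2, 253, 82.4 and 5.22 CPM against 6.28, 2.58 and 11.4, with replicate 4 among the mutants. Csf2rb, the shared receptor subunit gene for interleukin-3, interleukin-5 and GM-CSF (chromosome 15, 78325752 to 78353847), was at 91.6, 80.1, 53.1 and 24.5 CPM against 24.3, 17.6 and 10.7. It did not overlap, although replicate 4 stood only just above mutant replicate 1 (log2 -1.83 ± 0.44, edgeR adjusted p = 0.197).

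Lymphoid priming genes were lower for 15 of 21 tested members, with a median of -0.56, and 0.15 against control replicate 4 alone. Ikzf3, the gene of the lymphoid transcription factor Aiolos (chromosome 11, 98464902 to 98546031), was at 80.9, 35.3, 36.0 and 9.43 CPM against 6.80, 3.17 and 5.82. Pax5, the B-cell identity factor gene, was at 25.2, 9.53, 6.72 and 1.45 CPM against 0.824, 0.469 and 0.582. Neither overlapped, and in both replicate 4 was far nearer to the mutants than to replicate 1. Markers of mature B and plasma cells were lower for 16 of 16 tested members (median -2.02, and 0.18 against replicate 4 alone). The immunoglobulin gene Ighm was at 543, 132, 1076 and 4.21 CPM against 178, 5.63 and 4.07, so mutant replicate 1 was above control replicate 2.

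The other lists of mature cells had the same direction and the same dependence on control replicate 4. Monocyte and macrophage markers were lower for 20 of 20 tested members (median -2.38, and 0.64 against replicate 4 alone). Lyz2, the lysozyme gene of myeloid cells, was at 2134, 1523, 577 and 153 CPM against 129, 119 and 178. Basophil, mast cell and eosinophil markers were lower for 9 of 11 (median -5.37, and 0.16 against replicate 4 alone), with Prg2, an eosinophil granule protein gene, at 675, 187, 86.8 and 0 CPM against 1.75, 0 and 0.116. Dendritic cell markers were lower for 11 of 13 (median -0.74), T and NK cell markers for 5 of 7 (-0.18), and stromal and endothelial markers for 8 of 11 (-0.87). Against replicate 4 alone their medians were 0.20, 0.08 and 0.18.

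TNF and NF-kB response genes were lower for 17 of 24 tested members, with a median of -0.52, 8 of them lower at an unadjusted p under 0.05, where 6.03% of all genes were. Control replicate 4 lay above all mutants for 9 of the 24 and within their range for 12. Over the 13922 genes tested these counts were 3239 and 7438. The median of the list against replicate 4 alone was -0.06, while over all genes it was 0.08. Besides Tnf and Cxcl2, the chemokine gene Ccl3 was at 98.0, 85.7, 21.6 and 0.58 CPM against 0.103, 2.11 and 1.63, and Il1b, the interleukin-1 beta gene, at 80.6, 165, 48.7 and 1.02 against 0.721, 0 and 4.77. Ccl3 and Il1b were thus low in control replicate 4. Tnf and Cxcl2 had been chosen for no overlap between groups, so the pairs cannot be compared on that library. Genes of TNF and interleukin-1 receptors differed less, with 12 of 18 lower and a median of -0.17. Their median against replicate 4 alone had the opposite sign, at 0.185.

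Interferon-stimulated genes had 14 higher and 21 lower of 35 and a median of -0.05. At an unadjusted p under 0.05, 5 were lower and 0 higher, as were 6.03% and 2.49% of all genes. Groups did not overlap for 3 lower members (8.57%) and 0 higher ones, against 3.63% and 3.58% of all genes. The medians of the list were -0.49 and 0.08 within the prefixes, and 0.1 against control replicate 4 alone. Members without overlap included Mx1, an antiviral GTPase gene whose promoter gave its name to the pIpC-inducible Cre line (chromosome 16, 97447035 to 97462907). It was at 10.04, 4.52, 13.9 and 3.05 CPM against 1.55, 1.17 and 1.05, with replicate 4 the lowest control (log2 -2.63 ± 0.67, edgeR adjusted p = 0.204, and -1.25 ± 1.39 against replicate 4 alone). Rsad2, which encodes the antiviral protein viperin, was at 152, 101, 71.2 and 8.70 CPM against 25.5, 11.7 and 16.7, where replicate 4 was below all mutants.

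Immediate-early and AP-1 genes, which cells switch on within minutes of stimulation or handling, were lower for 17 of 25, with a median of -0.23, and 0.15 against control replicate 4 alone. Ier5, a member without overlap (chromosome 1, 155096361 to 155099636), was at 37.8, 52.2, 32.2 and 28.7 CPM against 10.8, 18.9 and 20.1. Its controls lay close together, with replicate 4 at their lower edge (log2 -1.19 ± 0.32, edgeR adjusted p = 0.223, and -0.77 ± 0.50 against replicate 4 alone). Btg2, an antiproliferative early-response gene, was at 127, 84.5, 77.3 and 24.4 CPM against 27.1, 11.8 and 15.4.

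Genes of G2 and mitosis, which mark dividing cells, were lower for 23 of 25 members, with a median of -0.35, and -0.04 against control replicate 4 alone. Mki67, the proliferation marker gene (chromosome 7, 135689784 to 135716361), was at 3165, 1452, 1475 and 985 CPM against 771, 1170.0 and 1001. Control replicate 1 stood out, and replicate 4 lay inside the mutant range. DNA replication genes were split, with 13 higher and 17 lower of 30. Their median of -0.09 became 0.20 against control replicate 4 alone. Tyms, the thymidylate synthase gene, did not overlap, at 172, 122, 159 and 117 CPM against 101, 88.5 and 116, but control replicate 4 and mutant replicate 3 were nearly equal.

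Regulators of quiescence were evenly divided, with 11 higher and 12 lower of 23. Their median of -0.06 became 0.20 against control replicate 4 alone. Btg1, an antiproliferative gene known to be high in resting cells (chromosome 10, 96617006 to 96622809), was at 269.8, 257, 172 and 147 CPM in controls and 102, 99.7 and 95.0 in mutants. The mutants lay within a narrow band below every control (log2 -1.10 ± 0.24, edgeR adjusted p = 0.197, and -0.56 ± 0.31 against replicate 4 alone). Rb1, the retinoblastoma gene, was at 182, 80.6, 92.7 and 59.7 CPM against 41.3, 44.7 and 47.7, again without overlap. The p53 targets had 9 higher and 10 lower of 19 members, and Cdkn1a, the gene of the cell-cycle inhibitor p21, was at 8.73, 18.9, 5.01 and 10.2 CPM against 1.44, 6.45 and 4.07, with overlap at mutant replicate 2.

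Genes that handle DNA methylation, the process Dnmt3a serves, were divided, with 10 higher and 9 lower of 19 tested members and a median of 0.00. Of these, 1 was lower at an unadjusted p under 0.05, against 6.03% of all genes. It was Gadd45a, a DNA damage response gene that is also among the p53 targets, at 60.6, 29.7, 27.2 and 8.99 CPM in controls and 12.5, 7.74 and 5.12 in mutants. Control replicate 4 lay inside the mutant range, and the log2 difference of -1.90 ± 0.56 (edgeR adjusted p = 0.272) was -0.08 ± 0.70 against it alone. Mbd4, the member with the next smallest p, encodes a glycosylase that repairs mismatches at methylated sites (chromosome 6, 115840697 to 115853371). It was at 87.4, 90.6, 82.7 and 81.2 CPM against 69.1, 56.99 and 69.2. No control reached down to a mutant, and the controls differed little from each other (log2 -0.39 ± 0.18, edgeR adjusted p = 0.610, and -0.31 ± 0.34 against replicate 4 alone). Of 30 Polycomb and chromatin genes of clonal haematopoiesis, 17 were higher and 13 lower, with a median of 0.04 and none at an unadjusted p under 0.05, a threshold that 8.51% of all genes passed. The Polycomb gene Cbx6, described above as higher in mutants, was not a member of this list.

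Hox genes and cofactors were higher for 13 of 16 tested members, with a median of 0.24, and 0.04 against control replicate 4 alone. Within the prefixes their medians had opposite signs, at 0.90 and -0.23. Hoxa5 was at 14.7, 9.90, 4.76 and 23.1 CPM against 27.5, 19.6 and 31.9, and Meis1, a Hox cofactor gene, at 202, 349, 394 and 444 against 431, 438 and 482. In both, control replicate 4 lay inside the mutant range. TGF-beta and Smad genes were higher for 13 of 22 (median 0.21, and 0.05 against replicate 4 alone), with Eng, the co-receptor gene endoglin, at 60.1, 63.3, 102 and 77.6 CPM against 91.2, 123 and 122. HSC ageing genes had 11 higher and 8 lower of 19 (median 0.08, and 0.24 against replicate 4 alone), and imprinted genes 10 higher and 5 lower of 15 (0.15).

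Genes of protein synthesis were mostly higher in mutants. Cytosolic ribosomal protein genes were higher for 40 of 46 members, with a median of 0.17, and 0.33 against replicate 4 alone, next to 0.08 over all genes. Their sums did not separate the groups, at 17260, 14420, 14350 and 14020 CPM in controls and 12000, 19960 and 18370 in mutants. Mutant replicate 1 was the lowest of the 7 libraries and mutant replicates 2 and 3 were the highest. Rps6, a ribosomal protein gene of the small subunit (chromosome 4, 86854660 to 86857412), was at 208.4, 178, 169 and 234 CPM against 236, 299 and 361, with replicate 4 just below mutant replicate 1 (log2 0.60 ± 0.20, edgeR adjusted p = 0.369). Many ribosomal protein genes have processed copies, so the sharing of their reads is uncertain.

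Ribosome biogenesis and Myc genes were higher for 23 of 29 (median 0.20, and 0.14 against replicate 4 alone). Fbl, the gene of the nucleolar methyltransferase fibrillarin (chromosome 7, 28169710 to 28179269), was at 60.9, 61.9, 49.3 and 56.1 CPM against 69.7, 78.0 and 77.7. Its groups did not overlap and control replicate 4 was within the controls (log2 0.40 ± 0.19, edgeR adjusted p = 0.619). Glycolysis genes were higher for 13 of 20 (median 0.13, and 0.22 against replicate 4 alone), with Ldha, the lactate dehydrogenase gene, at 198, 202, 281 and 240.0 CPM against 329, 302 and 286. Pgam1, which encodes a phosphoglycerate mutase of the same pathway, had the opposite order, at 86.5, 99.5, 59.1 and 52.6 CPM against 38.1, 47.4 and 41.1. Oxidative phosphorylation genes had 11 higher and 15 lower of 26 (median -0.03), and those of the unfolded protein and integrated stress response 10 higher and 11 lower of 21 (0.00). Against replicate 4 alone their medians were 0.30 and 0.25.

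**Figure D5:**
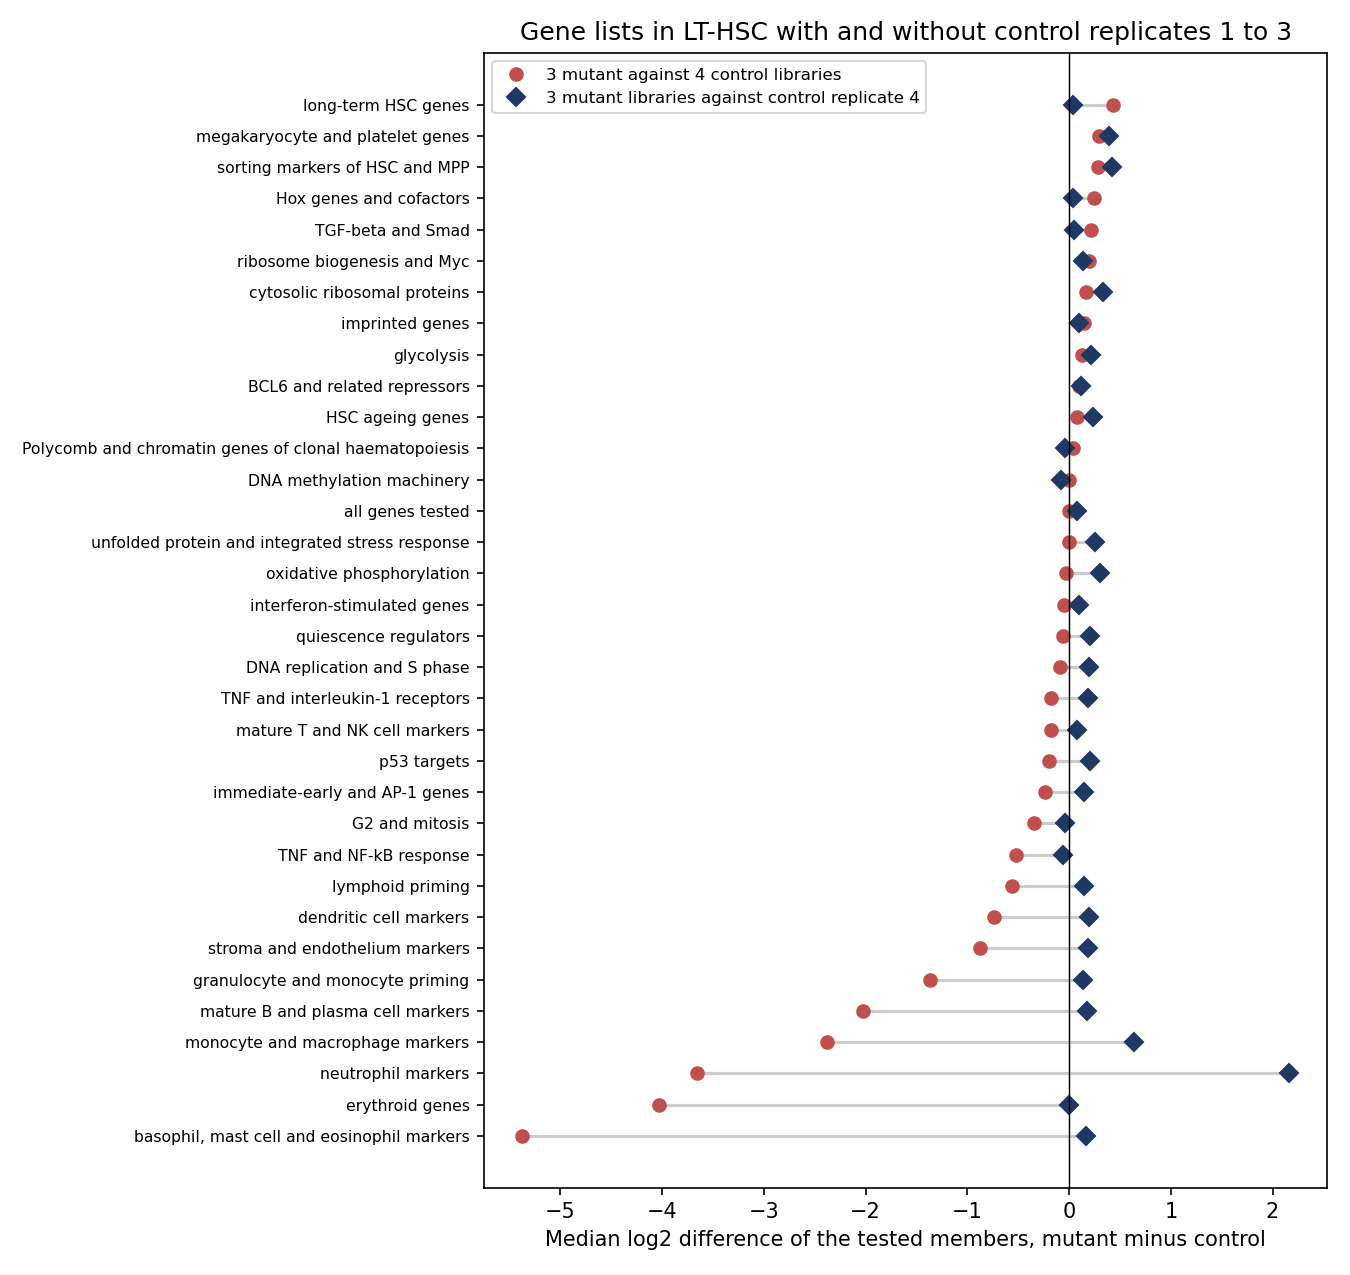
Median log2 difference, mutant minus control, of the tested members of 33 gene lists and of all genes, with all 4 control libraries (red) and with control replicate 4 alone (blue). Erythroid, neutrophil and other mature-cell lists move from as low as -5.37 to near or above 0, long-term HSC genes from 0.43 to 0.04, and ribosomal protein genes from 0.17 to 0.33.

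Whether the mutant difference in LT-HSC departed from that in the other populations was tested over all 29 libraries. The contrast set the LT-HSC difference against the mean of those in ST-HSC, MPP3 and MPP4. Libraries of different populations that share a number in the description were taken as independent in this fit. Of 15915 genes, 22 passed an adjusted p of 0.05 in edgeR's quasi-likelihood test (0.138%), and 888 (5.58%) had an unadjusted p under 0.05. All 22 were more negative in LT-HSC. Clec12a, a myeloid inhibitory lectin receptor gene (chromosome 6, 129342691 to 129365303), had a log2 difference of -5.01 in LT-HSC, while ST-HSC, MPP3 and MPP4 had -0.56, -0.06 and 0.27. The difference of effects was -4.89 ± 0.85 (adjusted p = 0.0181). In LT-HSC it was at 124, 43.6, 17.95 and 3.34 CPM in controls and 1.75, 1.88 and 0.699 in mutants, with replicate 4 just above the mutants.

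For Tnf the log2 differences were -5.18 in LT-HSC against 1.28, -0.55 and -0.41 in the others, and the difference of effects was -5.29 ± 1.03 (edgeR adjusted p = 0.0268). Bcl6 had -3.06 in LT-HSC against 0.40, -0.44 and 0.01 (difference of effects -3.05 ± 0.62, adjusted p = 0.0331). Scaled over 29 libraries, Bcl6 was at 11.03 to 14.2 CPM in control ST-HSC and 12.8 to 20.5 in mutant ST-HSC, so that the mutant LT-HSC, at 3.66 to 4.49, lay below all ST-HSC libraries and control LT-HSC replicate 4, at 12.7, lay among them. In mutant MPP3 and MPP4, however, the lowest libraries had 4.49 and 4.39 CPM of Bcl6, as low as mutant LT-HSC, although the medians there were 16.6 and 20.8. Igsf6 was at 43.7 to 73.4 CPM in control MPP3, 13.4 to 143.5 in control LT-HSC and 1.91 to 22.1 in control ST-HSC. Tnf was at 1.75 to 4.59 CPM in control ST-HSC and 0.846 to 15.4 in mutant ST-HSC.

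The 22 calls depended on single libraries. The count was 0 without control LT-HSC replicate 1, 13 without replicate 2, 23 without replicate 3 and 105 without replicate 4. It was 0 without any 1 of the 3 mutant LT-HSC libraries, and 0 when control replicates 1, 2 and 3 were left out together. None was more positive in LT-HSC. The more positive genes with the smallest p were Gm20539, Kcng1, Echdc2, Srgap3 and Hic2. Hic2, a transcriptional repressor gene, was at 4.51, 4.77, 10.4 and 7.83 CPM in control and 14.6, 12.9 and 15.5 in mutant LT-HSC (difference of effects 1.62 ± 0.47, edgeR adjusted p = 0.272). Its groups did not overlap.

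Set against control replicate 4 alone, with the spread taken from the mutants and the lone control assumed to vary like them, 2 of 14956 genes passed in edgeR, both higher in mutants. They fall outside the rule for named genes and were chosen after their values were seen. Gm20716, a gene model on chromosome 2, had 0 counts in control replicate 4 but 11.5, 29.5 and 25.0 CPM in the other controls, of which the first lay below and the others within the 24.7 to 36.4 CPM of mutants. Evi2 (chromosome 11, 79513385 to 79530589), the gene called without control replicate 3, was at 0, 0, 29.1 and 0 CPM in controls and 18.2, 54.9 and 34.7 in mutants. Its coordinates overlap those of Evi2a and Evi2b, so its counts, at 0 in 3 of the 7 libraries, are uncertain wherever reads had to be divided among the 3 genes.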

How the data were processed

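Expected counts per gene, deposited as whole numbers for 38924 Ensembl identifiers, were used without rounding. Per the submitters' processing notes, the tools behind them were edgeR 3.5.3, SAMtools 0.1.18, RSEM 1.2.12 and Bowtie2 2.2.0 on GRCm38, without a stated role or order. RSEM divides reads among near-identical genes, so the values of such copies are uncertain. GENCODE M21 gave symbols and coordinates for 37607 identifiers, and 1317 had no match and are printed as they stand, without coordinates.

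Mutant and control LT-HSC were compared in R 4.3.3 with edgeR 4.0.16, using TMM library scaling, the filterByExpr filter (minimum count 10, minimum total 15), the quasi-likelihood test and Benjamini-Hochberg adjustment over all genes tested, two-sided, at 0.05. The difference from the other populations was fitted over all 29 libraries with 8 group means. Levels per library used effective library sizes. The comparisons, the 33 gene lists and the members were chosen with earlier results of these data known. Of 742 distinct list genes, 737 were found.

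Named genes were up to 12 per direction with the smallest p and no overlap between groups, up to 4 of each list by p, fixed stem-cell and marker genes, and 5 per direction of the comparison across populations. A few genes that this rule names are not reported here. Library totals of 6438821 to 9416995 counts limit precision for genes at a few CPM. Alternatives were other scaling, no filter on low counts, omission of rRNA-like genes, single libraries or the controls over 100 CPM of S100a8, DESeq2 1.42.0, a replicate block, a neutrophil covariate and, chosen after seeing the data, the column-name prefix. The pipeline was tested on simulated data.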

Additional observations from a re-analysis of the deposited data

Results flagged for a closer look

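In a check of 110 groups of 4 control values, 4 had a library whose gap to the nearest of the others took up most of the group's range, beyond Dixon's 95% critical value. Chance alone gives about 1 in 20 such groups. The libraries were control replicate 1 for Reln (19.3 CPM), for the sum of oxidative phosphorylation genes (2170.0 CPM) and for the sum of cytosolic ribosomal protein genes (17260 CPM), and control replicate 3 for Evi2 (29.1 CPM).

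The mutant difference in LT-HSC departed from the mean of those in ST-HSC, MPP3 and MPP4 by the test of the difference itself for 11 named genes. On the log2 scale the departure was -11.5 for Elane, the neutrophil elastase gene with 0 counts in control replicate 4 and all mutants. It was -5.94 for Cxcl2, -5.75 for Igsf6, -5.29 for Tnf, -5.28 for Ccl3, -5.02 for Mpo, -4.89 for Clec12a, -4.77 for the unmatched identifier ENSMUSG00000089672, -4.42 for Alas2, -3.05 for Bcl6 and -1.95 for Cxcr2. The adjusted p values in edgeR ran from 0.0181 to 0.0331, and without control replicates 1, 2 and 3 no gene passed.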

How the results depend on the processing

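The count of genes past the threshold in LT-HSC was 0 with all control libraries and stayed 0 under DESeq2 size factors, library totals alone, omission of rRNA-like genes and the prefix as a term. It was 189 without a filter on low counts, 292 with DESeq2, 82 in the fit of all 29 libraries, 6 with the neutrophil covariate and 2 without the libraries over 100 CPM of S100a8. Leaving out 1 library gave 0 to 417, the latter without control replicate 4. With the replicate number as a block the count was 397 and Pf4 turned to 0.10. No mutant shares the number of control replicate 4, so that library adds nothing to the mutant difference in this fit. The correlations of same-numbered libraries were -0.02, -0.15 and -0.12, so the numbers do not pair the samples. The 22 genes of the comparison across populations became 66 without the filter, 17 with totals alone, 16 with the prefix, 17 with a block by the number in the description and 0 without the libraries over 100 CPM of S100a8. Only 12 of the 22 were among the 17 called with that block. Leaving out 1 library gave 0 to 105. Scaling by totals alone moved the median log2 difference of all genes to 0.073 in LT-HSC and that of the comparison across populations to 0.119.

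Some log2 differences reversed. With 1 library left out at a time, Dnmt3a ran from -0.089 (without control replicate 1) to 0.276 and Pf4 from -0.268 to 0.119. With the neutrophil covariate the values were -0.26 for Dnmt3a, -0.061 for Cd34, 0.61 for S100a8, 1.44 for S100a9, 0.11 for Ighm and 0.083 for Rsad2. Without the libraries over 100 CPM of S100a8 they were -0.38 for Dnmt3a, -0.15 for Cd34, 0.54 for Cd48, 3.04 for S100a8, 3.97 for S100a9, 1.19 for Ngp, 0.38 for Mpo, 0.12 for Hbb-bs, 3.89 for Ighm, 1.06 for Rsad2, 1.14 for Ccl3, 0.85 for Il1b, 0.01 for Mki67, 5.43 for Prg2 and -0.016 for Srgap3. The difference from the other populations then was 1.15 for Ccl3, 0.69 for Mpo and 0.16 for Elane. That setting removes the 3 controls with mature-cell RNA and leaves 1, assumed to vary like the mutants. The cause of the other shifts was not tested. Over the alternatives, single-gene log2 differences other than that of Dnmt3a kept direction and side of the threshold in 1098 cases, passed it in 166 and reversed in 24. Dnmt3a, counted apart, reversed in 4. No library was treated as a duplicate. At these depths, 1 CPM corresponds to fewer than 10 counts in each library.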
